A study of Mus musculus with 2 samples.

Results

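Gata3, Tbx21, Eomes, Rora, Id2, Zbtb16, Tcf7, Maf and Batf3 are 9 transcription factor genes of innate lymphoid cells (ILCs), and they were described here across the ILCs of the mouse small intestine and colon. The genes were given as a list of names. All 9 were among the 17238 genes of the authors' table of cells. Single-cell RNA sequencing with the 10x Chromium 3′ v2 kit had been done on ILCs of C57BL/6 mice aged 8 weeks, sorted by flow cytometry as IL7ra+ ILC, where IL7ra is the receptor chain for interleukin 7. The sample titles call both samples fed. Each library was a pool of 8 mice, and there was 1 library for the small intestine and 1 for the colon. With 1 library a tissue no test was possible, so no p-value is given and no difference between the tissues has a replicate check.

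ILCs are lymphocytes without rearranged antigen receptors, and their families are named by the factors and cytokines they make. GATA3 is needed for ILC2, which secrete IL-5 and IL-13. T-bet, made from Tbx21, marks ILC1 and some ILC3, and EOMES marks natural killer (NK) cells. ILC3 secrete IL-22. ID2 blocks E proteins and is shared by ILCs, while RORα, PLZF (from Zbtb16) and TCF-1 (from Tcf7) act in ILC precursors and stay on in some mature cells. c-MAF and BATF3 are basic leucine zipper factors, and BATF3 is best known from dendritic cells.

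In the GENCODE vM21 annotation of mm10, counted from 1, all 9 are protein-coding genes. Gata3 lies on chromosome 2 from 9857078 to 9890034, Batf3 on chromosome 1 from 191097847 to 191108945, and Id2 on chromosome 12 from 25093799 to 25097140. Maf lies on chromosome 8 from 115682942 to 115707794. Tbx21 and Tcf7 are on chromosome 11, from 97098071 to 97115331 and from 52252371 to 52283014. Rora, Zbtb16 and Eomes share chromosome 9, at 68653786 to 69388246, 48654297 to 48836222 and 118478212 to 118486132. Batf3, Eomes and Rora are on the plus strand and the others on the minus strand. Gata3 overlaps the gene 9230102O04Rik and Tcf7 overlaps Gm26551 on the same strand, so reads in the shared parts are uncertain.

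The pair of T-box genes is shown by the 250 bases upstream of their RefSeq start sites (GRCm38.p6), because these 2 related factors had their highest level in different clusters below. RefSeq promoters were matched for 7 of the 9 members. The Tbx21 window is chr11:97115332-97115581 on the minus strand and the Eomes window is chr9:118477939-118478188 on the plus strand, both written 5′ to 3′. Capitals mark a match to TATANA, which was searched on both strands after the sequences had been seen.

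Tbx21: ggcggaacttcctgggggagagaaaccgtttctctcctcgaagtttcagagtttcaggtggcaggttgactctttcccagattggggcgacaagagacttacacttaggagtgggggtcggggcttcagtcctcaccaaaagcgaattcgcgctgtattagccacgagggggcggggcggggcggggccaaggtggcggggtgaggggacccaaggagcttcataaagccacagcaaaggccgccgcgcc

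Eomes: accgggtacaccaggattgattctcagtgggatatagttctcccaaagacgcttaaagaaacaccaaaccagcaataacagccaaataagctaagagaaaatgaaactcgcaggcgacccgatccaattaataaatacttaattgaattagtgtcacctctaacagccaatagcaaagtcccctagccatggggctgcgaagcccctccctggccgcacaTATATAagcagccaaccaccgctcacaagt

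The Eomes window held TATATA at 30 to 25 bases before the start, a motif found in 22.3% of the 32536 promoters of that length, and the Tbx21 window held none. G and C made up 60.8% of the Tbx21 window and 46.4% of the Eomes window. Neither window held, on either strand, the T-box letters TCACACC (in 3.33% of promoters), the GATA factor letters AGATAA (in 9.97%), the TCF letters CTTTGA (in 13.9%), the AP-1 letters TGANTCA (in 6.73%), the ROR letters AGGTCA (in 14.0%) or the E-box letters CAGCTG (in 13.1%). These matches describe letters and not binding.

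The table held 5490 cells of the small intestine with 15080081 unique molecular identifiers (UMIs, counted molecules) and 7549 cells of the colon with 22332691. The median cell had 2579 and 2600 UMIs, and 60 barcodes were shared by the libraries against 56.2 expected by chance. Levels are UMIs of a gene over all UMIs of the same cells, scaled as counts per 1000000 (CPM), with a 95% exact Poisson interval where one is given. Intervals of ratios are exact conditional binomial intervals. All intervals cover counting error only and not variation between mice, libraries or cells. Shares of cells are shares with at least 1 UMI after each cell was thinned to 1000 UMIs, with the unthinned share named as such. The 3′ counts are not scaled by length and are not used to rank one gene against another.

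Cells were clustered without the 9 genes and without Il22, Il5 and Il13. A class name stands for clusters that are like that cell type by their markers, so ILC3 is to be read as ILC3-like, and likewise for ILC2, ILC1/NK and T cells. The ILC3 class held 4130 cells of the small intestine (75.2%) and 1171 of the colon (15.5%). The ILC2 class held 847 (15.4%) and 4180 (55.4%), the ILC1/NK class 95 and 873, and the T cell class 257 and 1178. Cd3e reached 932 CPM in the T cell class of the small intestine and 771 CPM in that of the colon, so a sort labelled as ILC held cells with T cell transcripts. A cluster of 148 and 128 cells, led by Ccl5, Gzma and Gramd3, stayed unnamed. The ILC3 and ILC2 classes were made mostly of different clusters in each tissue, clusters 0, 1 and 5 of ILC3 and 3 of ILC2 in the small intestine, and clusters 4 and 11 of ILC3 and 8, 9, 10 and 13 of ILC2 in the colon. A cluster mostly of 1 library may be that library and not a type.

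Cluster 11 stands apart and touches several values below. Its 65 cells of the small intestine and 364 of the colon had a median of 5521 UMIs, and 54.3% of them were among the cells that scored highest as doublets, 92.3% in the small intestine against 47.5% in the colon. The 11 ILC2 markers summed to 3713 CPM in its small intestine cells and 1252 CPM in its colon cells, beside 516 and 363 in the other ILC3 cells. The 9 T cell markers summed to 967 and 1376 CPM, beside 795 and 350. The 7 B or plasma cell markers summed to 369 and 977 CPM, beside 635 and 119. The 11 ILC1/NK markers summed to 661 and 696 CPM, beside 646 and 194. Ratios of levels within ILC3 are therefore also given without it.

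**Figure D1:**
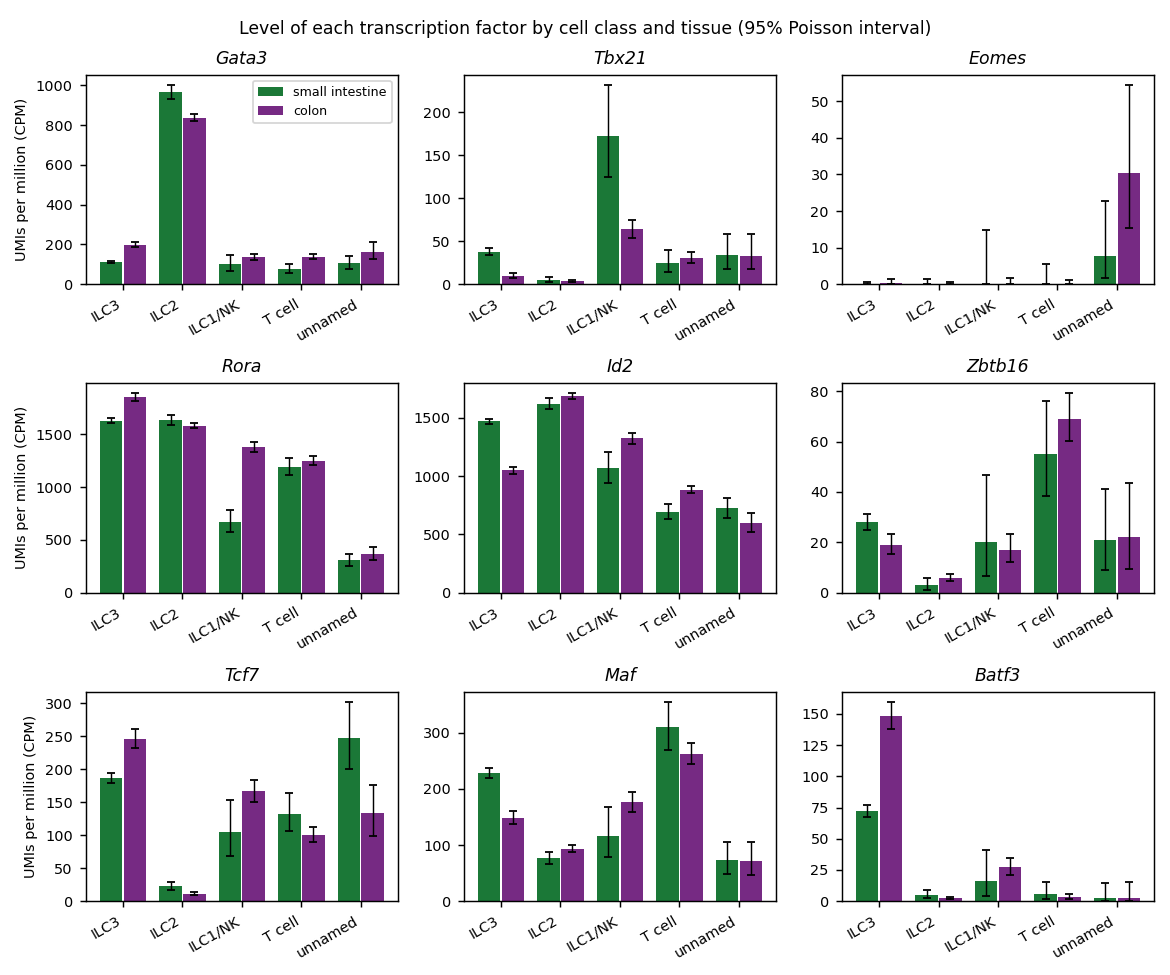
Bars give the level of each of the 9 genes in CPM (vertical axis, linear, from 0, with its own range for each gene) in the cell classes of each tissue (small intestine green, colon purple), and error bars are 95% exact Poisson intervals. Gata3 stands highest in the ILC2 class, at 967 CPM in the small intestine against 838 in the colon, while Rora and Id2 have tall bars in both tissues across the ILC classes.

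Gata3, the factor that ILC2 require, was, of the 8 members tested, the one with the largest fold toward the colon over all cells. It had 3979 UMIs in the small intestine (264 CPM, interval 256 to 272) and 11589 in the colon (519 CPM, 510 to 528), a level 1.97-fold higher in the colon (1.90 to 2.04). A Gata3 UMI was found in 16.0% of the cells of the small intestine and 33.0% of those of the colon. The fold is just under the 2-fold used here to count a gene as different, and it passed 2-fold with median-ratio scaling (log2 ratio -1.19) and without cluster 11 (-1.09).

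Within the ILC2 class the order was the other way, with 967 CPM in the small intestine against 838 in the colon, a ratio of 1.15 (1.11 to 1.21). Gata3 was seen in 57.1% and 50.4% of ILC2 after thinning and in 85.5% and 79.9% unthinned. ILC2 made up 15.4% of the cells in one library and 55.4% in the other, and the part of that share in the difference over all cells was not tested. Among the colon ILC2 clusters the level ran from 630 CPM in cluster 9 to 1160 CPM in cluster 13.

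In the ILC3, ILC1/NK and T cell classes the Gata3 level was lower than in ILC2. The ILC3 class had 112 CPM in the small intestine against 198 in the colon, 1.77-fold higher in the colon (1.62 to 1.93). Without cluster 11 the levels were 96.0 and 89.4 CPM, a ratio of 1.07 (0.93 to 1.25), so the difference within ILC3 was not detectable without those cells. At a Leiden resolution of 2 the log2 ratio was 0.16 (-0.06 to 0.38), an interval that includes 0. The ILC1/NK class had 100 and 136 CPM and the T cell class 77.8 and 137 CPM. Free RNA, profiled in barcodes with 10 to 50 UMIs, would add about 7.26 CPM of Gata3 to a small intestine cell and 20.6 CPM to a colon cell, below these levels.

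Rora and Id2, the members shared by most ILCs, had almost the same level in both tissues over all cells. Rora encodes RORα, a nuclear receptor, and gave 1542 CPM in small intestine and 1545 CPM in colon cells, a ratio of 0.998 (0.98 to 1.01). It was seen in 71.0% and 70.3% of cells. Id2 gave 1419 and 1381 CPM, a ratio of 1.03 (1.01 to 1.05), and was seen in 62.6% and 61.7% of cells. With median-ratio scaling, which moves the median of all genes by 0.21 on the log2 scale, both were lower in the small intestine, with log2 ratios of -0.21 for Rora and -0.17 for Id2.

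The near-equal Rora totals covered differences between clusters. In the colon, Rora was at 2117 CPM in ILC2 cluster 8 and 2172 in cluster 13, and at 876 in cluster 9 and 1125 in cluster 10. Small intestine ILC3 had 756 CPM in cluster 1 and 1545 in cluster 0. Heat shock gene Hspa1a was among the 10 leading genes of cluster 1, and its part in the lower Rora level was not tested. The unnamed cluster 7 had 307 and 366 CPM.

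Id2, the E protein inhibitor, differed between the tissues within ILC3. It stood at 1470 CPM in the small intestine against 1050 in the colon, a ratio of 1.40 (1.36 to 1.45), and the ratio was 1.43 without cluster 11. With median-ratio scaling the difference was smaller, at a log2 ratio of 0.28 (0.23 to 0.32) beside 0.49. In cluster 4, the ILC3 cluster best filled from both tissues, Id2 was 1388 and 986 CPM, a ratio of 1.41 (1.31 to 1.51). Within ILC2 it was 1621 and 1689 CPM.

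**Figure D2:**
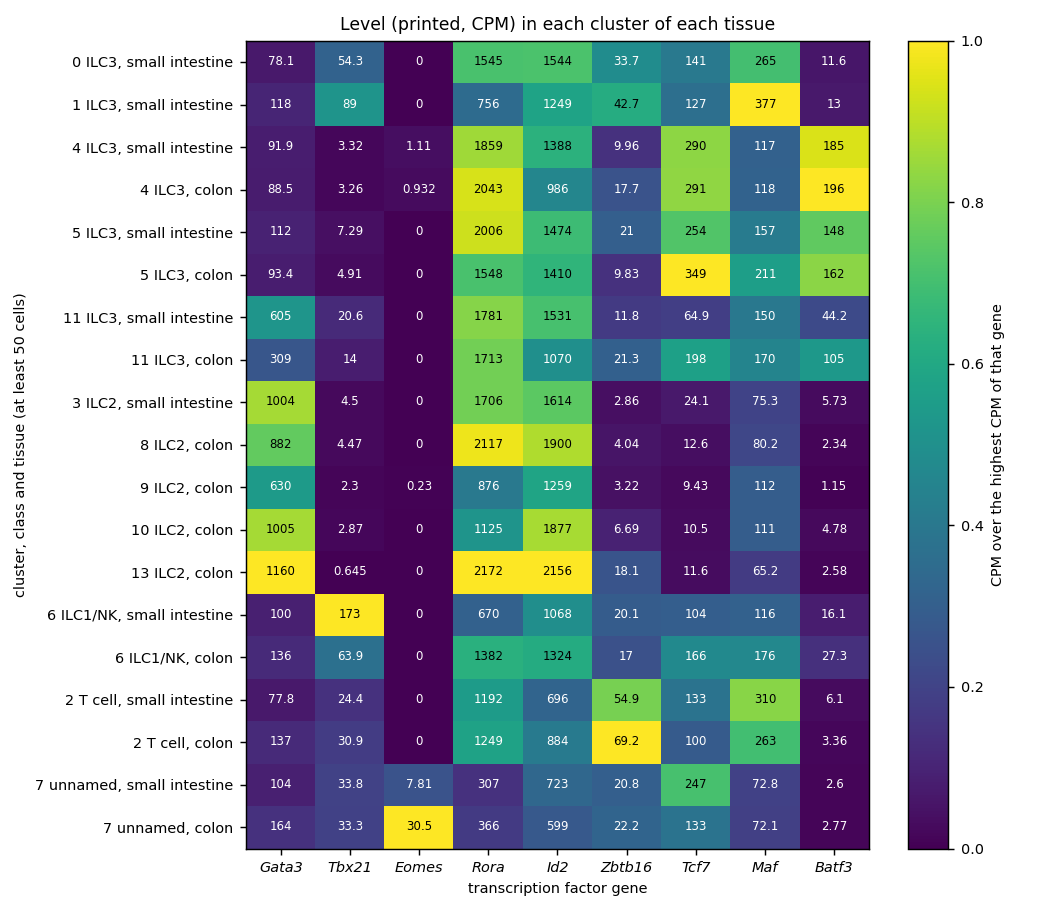
Printed values are the level of each gene (columns) in CPM in each cluster with at least 50 cells in a tissue (rows), and the colour is that level over the gene's highest level, from 0 (dark) to 1 (yellow). Among the ILC3 clusters, Batf3 and Tcf7 are high in clusters 4 and 5, and Tbx21 and Maf in clusters 0 and 1. Tbx21 is highest in ILC1/NK cluster 6 of the small intestine (173 CPM). Maf is also high in T cell cluster 2 (310 CPM in the small intestine, 263 in the colon), and Gata3 is high in the ILC2 clusters.

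Tbx21, which encodes T-bet, was the 1 member of 8 tested (Eomes had fewer than 20 UMIs) with at least 2-fold more in the small intestine over all cells. At least 2-fold higher levels were found for 8.92% of all genes tested, and at least 2-fold lower levels for 5.42%, a limit no member passed. Tbx21 had 497 UMIs (33.0 CPM) in the small intestine against 336 (15.05 CPM) in the colon, a ratio of 2.19 (1.90 to 2.52). With median-ratio scaling the log2 ratio was 0.92, under the limit. The share of cells with a Tbx21 UMI was 2.75% and 1.64%. The median log2 ratio was 0.45 over the 8 members tested and 0.20 over all genes.

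Tbx21 was highest in the ILC1/NK class, with 173 CPM in the small intestine (125 to 233, from 43 UMIs) and 63.9 CPM in the colon (54.1 to 75.0). Both were above the 37.96 and 9.28 CPM of ILC3. ILC2 had 4.75 and 3.14 CPM, beside the 1.53 and 1.49 CPM that free RNA would add. Within ILC3 the small intestine level was 4.09-fold higher (2.995 to 5.72), and 8.39-fold higher without cluster 11 (4.64 to 16.9).

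That ILC3 difference followed the clusters. Small intestine cells had Tbx21 at 54.3 CPM in cluster 0 and 89.0 in cluster 1, which were named NCR+ ILC3 by markers such as Ncr1. It was at 3.32 in cluster 4 and 7.29 in cluster 5, which were named CCR6+ ILC3 by markers such as Ccr6 and MHC class II genes. Clusters 0 and 1 held 8 and 11 cells of the colon, so Tbx21 in NCR+ cells could not be compared between the tissues.

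Eomes, the T-box factor of NK cells, gave 18 UMIs in 17 cells of the 13039. The small intestine had 4 UMIs and the colon 14. Of these, 3 and 11 UMIs fell in the unnamed cluster 7, which held 276 cells. The ILC1/NK and T cell classes had 0. For the 95 ILC1/NK cells of the small intestine and the 873 of the colon, a count of 0 allows up to 3.16% and 0.344% with a UMI. This bounds detection and says nothing of how many cells express Eomes, since at a median of 2396 and 2413 UMIs Tbx21 itself was seen in 35.8% and 14.4% of these cells unthinned.

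Cluster 7 also had Tbx21 at 33.8 and 33.3 CPM and Tcf7 at 247 and 133 CPM. The 9 T cell markers summed to 7137 and 4386 CPM in it and the 11 ILC1/NK markers to 11279 and 13325, with none at 0. The T cell markers summed to 7023 and 6274 CPM in the T cell class and to 847 and 682 in the ILC1/NK class. The ILC1/NK markers summed to 15084 and 5957 CPM in the ILC1/NK class and to 815 and 630 in the T cell class. Sums over a cluster do not show whether the same cells held both sets. A mix of NK cells and T cells therefore cannot be told apart here from T cells with NK genes.

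**Figure D3:**
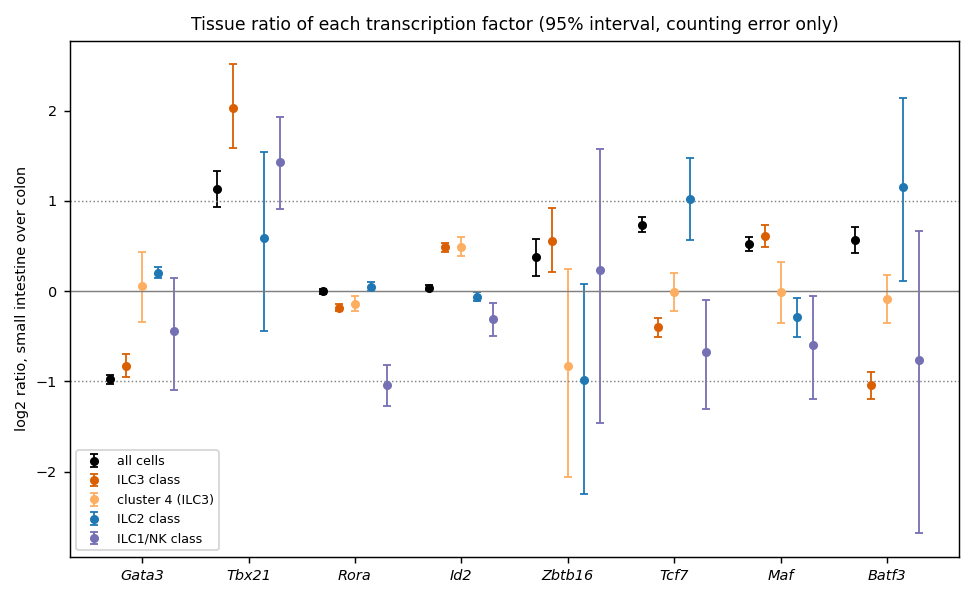
Points give the log2 ratio of the small intestine level over the colon level (vertical axis) for the 8 genes other than Eomes, over all cells, within classes and within ILC3 cluster 4, with 95% exact conditional binomial intervals, dotted lines at a 2-fold ratio, and points under 20 UMIs in all left out. As a linear ratio, Tbx21 lies at 2.19 over all cells and 4.09 within ILC3, and Batf3 moves from 1.48 over all cells to 0.49 within ILC3.

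Tcf7, which encodes TCF-1, and Batf3 were both higher in the small intestine over all cells and lower there within ILC3. Tcf7 had 152 CPM in the small intestine against 91.2 in the colon over all cells, a ratio of 1.67 (1.57 to 1.77). Within ILC3 it had 186 and 246 CPM, 1.32-fold higher in the colon (1.23 to 1.42), and without cluster 11 it had 190.4 and 293 CPM (1.54-fold, 1.41 to 1.68). Batf3 had 53.4 and 36.1 CPM over all cells, a ratio of 1.48 (1.34 to 1.63), and 72.1 and 148 CPM within ILC3, 2.06-fold higher in the colon (1.86 to 2.28). Without cluster 11 the Batf3 levels in ILC3 were 72.95 and 191 CPM, 2.62-fold higher in the colon (2.33 to 2.95).

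Among 8 members tested within ILC3, Tbx21 passed 2-fold as higher in the small intestine, where 9.24% of all genes did, and Batf3 as lower, where 5.65% did. Tcf7 and Batf3 were high in the same clusters, at 254 to 349 and 148 to 196 CPM in clusters 4 and 5 of both tissues. In clusters 0 and 1 of the small intestine they were at 127 to 141 and 11.6 to 13.03 CPM. Without cluster 11 the same 2 members passed, with 11.6% of all genes higher and 5.36% lower. Of the colon ILC3, 706 cells were in cluster 4, and of the small intestine ILC3, 384.

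Compared within cluster 4, both genes had nearly the same level in the tissues. Tcf7 was at 290 CPM in the small intestine against 291 in the colon, a ratio of 0.996 (0.86 to 1.15). Batf3 was at 185 and 196 CPM, a ratio of 0.94 (0.78 to 1.13). Of the 7 members tested in that cluster, 0 differed by at least 2-fold in either direction, against 6.09% of all genes higher and 4.44% lower in the small intestine.

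In ILC2, Tcf7 was low, at 22.6 CPM in the small intestine against 11.1 in the colon, a ratio of 2.04 (1.48 to 2.77). Batf3 there rested on 14 and 27 UMIs, 5.11 and 2.29 CPM, a ratio of 2.23 (1.08 to 4.403). These 2 of 8 members passed 2-fold as higher in the small intestine, where 3.48% of all genes did, and 0 passed as lower, where 6.17% did. By the estimate used here, free RNA would add 5.41 CPM of Tcf7 and 4.62 of Batf3 to small intestine cells. To colon cells it would add 6.19 and 5.57. The Batf3 level found in colon ILC2, 2.29 CPM (1.51 to 3.34), is below that 5.57 CPM. The estimate is therefore too high there for this gene. The Batf3 level in ILC2 cannot be told from free RNA.

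Maf and Zbtb16 had their highest level among the 4 named lymphoid classes in the T cell class, in both tissues. Maf encodes c-MAF and had 195 CPM in the small intestine against 136 in the colon over all cells, a ratio of 1.44 (1.37 to 1.51). In T cells it had 310 and 263 CPM and in ILC3 228 and 149 CPM. The ILC3 ratio was 1.53 (1.41 to 1.67) and 1.80 without cluster 11, but within cluster 4 Maf was at 117 and 118 CPM. Clusters 0 and 1 of the small intestine, where Tbx21 was also high, had Maf at 265 and 377 CPM.

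Zbtb16 encodes PLZF, a factor of ILC precursors and innate-like T cells. It had 23.9 CPM in the small intestine against 18.4 in the colon, a ratio of 1.30 (1.12 to 1.498), and was seen in 2.50% and 1.81% of cells. The T cell class had 54.9 and 69.2 CPM, ILC3 had 28.0 and 19.0, ILC1/NK 20.1 and 17.0, and ILC2 2.92 and 5.78. Without cluster 11 the ILC3 levels of Zbtb16 were 28.5 and 16.7 CPM, a ratio of 1.71 (1.23 to 2.44), beside 1.48 with it. In the T cell class, where Trdc (the γδ T cell receptor gene) was at 1933 and 1988 CPM, 0 of 7 members differed by 2-fold, against 5.27% of all genes higher and 5.38% lower.

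The ILC1/NK class was compared on 95 and 873 cells. Tbx21 was 2.70-fold higher in the small intestine and Rora was 2.06-fold higher in the colon (1.76 to 2.42), with 670 CPM against 1382. Each is 1 of 8 members, and 7.13% and 10.6% of all genes passed 2-fold in those directions. The 11 ILC1/NK markers summed to 15084 CPM in the small intestine against 5957 in the colon cells of the class, and their part in the member ratios was not tested. Neither ratio reached 2-fold at a Leiden resolution of 2, where the log2 ratios were 0.91 for Tbx21 and -0.89 for Rora.

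Pairs of members were compared with what independence would give in the same tissue. Of 36 pairs, 25 in the small intestine against 24 in the colon had at least 10 cells expected. A pair was counted as seen together at 1.5 times the expected cells or more, and as apart at 0.5 times or less.

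In the colon, Gata3 was seen apart from Tcf7 and from Batf3. Gata3 and Tcf7 were seen in 89 cells, with 188 expected (0.47), and Gata3 and Batf3 in 25, with 69.4 expected (0.36). In the small intestine the same pairs gave 0.66 and 0.61, and the pair counted as apart was Gata3 and Zbtb16, in 10 cells with 21.9 expected (0.46). The pair of Gata3 and Tbx21, factors of different families, gave 18 cells with 24.2 expected (0.74) in the small intestine, then 25 with 41.0 expected (0.61) in the colon. That pair did not reach the limit in either tissue.

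Tcf7 with Batf3 and Tbx21 with Maf were the pairs seen together in both tissues. Tcf7 and Batf3 were seen together in 71 cells of the small intestine with 46.1 expected (1.54) and in 47 of the colon with 15.8 expected (2.97). In colon cells with Tcf7, 8.27% also had Batf3, against 2.33% of those without. Tbx21 and Maf were seen together in 41 cells with 26.4 expected (1.55) and in 27 with 15.1 expected (1.79).

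Rora and Id2 were seen together about as often as independence gives, at 1.01 in the small intestine against 1.02 in the colon. When the expected number was taken within each cluster and summed, a step added after the data had been seen, the listed pairs came closer to 1. Gata3 with Tcf7 gave 1.05 and with Batf3 0.89 in the colon, and Tcf7 with Batf3 gave 1.10 and 1.06 in the small intestine and colon. Gata3 with Zbtb16 gave 0.80 in the small intestine, and Tbx21 with Maf gave 1.15 and 1.38. Gata3 with Tbx21 turned from below 1 to above it, at 1.23 and 1.21. At 1000 UMIs a cell, a mean of 1.92 and 1.91 of the 9 members was seen per cell.

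**Figure D4:**
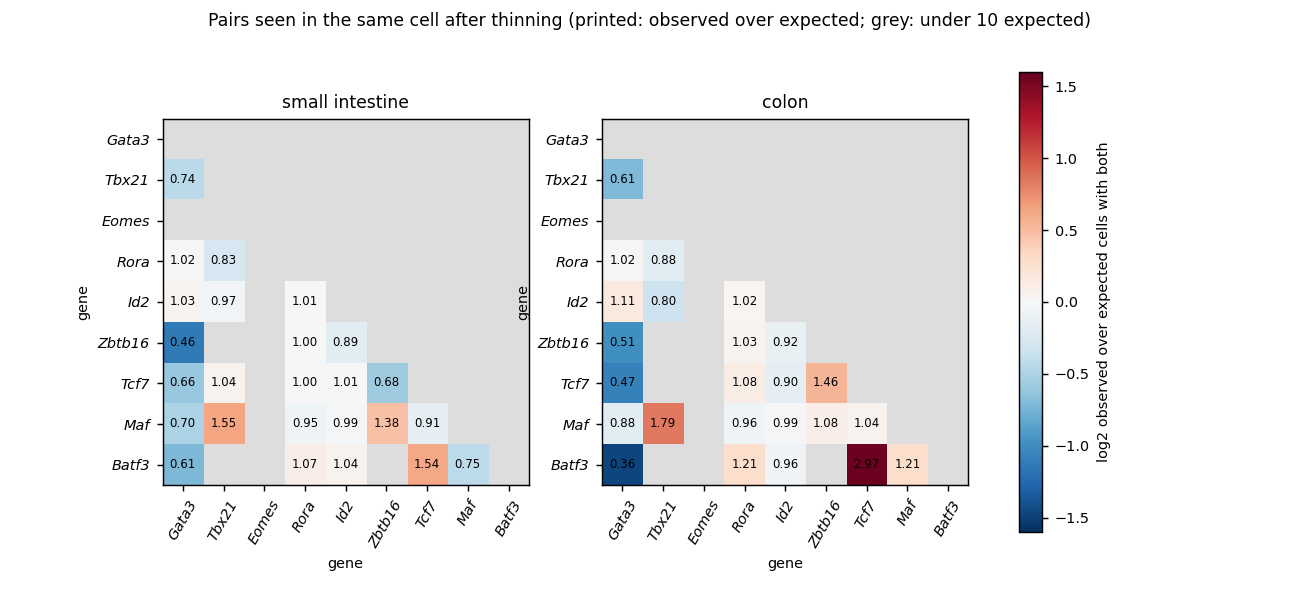
Observed over expected number of cells with both genes for pairs of the 9 genes in each tissue, cells thinned to 1000 UMIs: the ratio is printed, red is above and blue below the expected number (log2 colour scale), and grey marks pairs with under 10 expected cells and the diagonal and mirror-image entries. Tcf7 with Batf3 reaches 2.97 in the colon and Gata3 with Batf3 0.36.

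Cells with at least 5 UMIs of Il22, the cytokine of ILC3, numbered 2015 in the small intestine (36.7%, exact binomial interval 35.4% to 38.0%) and 1011 in the colon (13.4%, 12.6% to 14.2%). ILC3 made up 97.9% of them in the small intestine but 83.5% in the colon, where ILC1/NK cells made up 15.1%. Gata3 was lower in these cells than in the others in both tissues. In the small intestine it was at 102 against 360 CPM, a ratio of 0.28 (0.26 to 0.31), and in the colon at 180 against 596 CPM, a ratio of 0.30 (0.28 to 0.32).

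Batf3 was higher in Il22-high cells, at 78.3 against 38.8 CPM in the small intestine (2.02-fold, 1.75 to 2.33) and in the colon at 142 against 11.9 CPM (11.97-fold, 10.2 to 14.1). Tcf7 was 1.57-fold higher in the small intestine and 4.63-fold in the colon. Of the 8 members, 1 in the small intestine was higher and 1 lower by 2-fold, against 2.62% and 3.73% of all genes. In the colon 2 were higher and 1 lower, against 8.49% and 6.90% of all genes.

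Within the ILC3 class those differences were small, and 0 of 8 members passed 2-fold in either tissue. Of all genes, 0.841% were higher and 1.31% lower in the small intestine, with 2.40% and 2.02% for the colon. Rora was higher in the Il22-high ILC3 of both tissues, at 1827 against 1435 CPM (1.27-fold, 1.24 to 1.31) and 1936 against 1577 CPM (1.23-fold, 1.17 to 1.29). In the small intestine Tbx21 was at 28.8 against 47.0 CPM (0.61, 0.50 to 0.75) and Maf at 198 against 257 CPM (0.77). Without cluster 11, 0 of 8 members in the small intestine and 0 of 7 in the colon passed 2-fold, against 0.845% and 2.80% of all genes higher and 1.37% and 3.49% lower. Rora was then 1.29-fold and 1.39-fold higher, Tbx21 was at 0.61 and Maf at 0.77 in the small intestine, and Maf in the colon was at 0.67 (0.52 to 0.86), beside 0.82 with cluster 11.

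Those 2 lower ratios were nearer 1 inside cluster 0. There Tbx21 was at 52.8 CPM in Il22-high cells and 55.6 in the others (0.95, 0.74 to 1.23), and Maf at 254 and 275 CPM. Rora remained higher in Il22-high cells of cluster 4 in both tissues, 1.22-fold in the small intestine (1.10 to 1.35) with 1.33-fold in the colon (1.23 to 1.45). In cluster 5 of the small intestine it was 1.16-fold higher and in cluster 0 1.06-fold.

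In the colon, 153 of the 873 ILC1/NK cells (17.5%) passed the Il22 limit, where free RNA alone would bring 0.116% past it. Their Tbx21 was at 12.6 CPM from 6 UMIs against 76.9 CPM in the other 720 (0.16, 0.06 to 0.37), and their Batf3 at 80.1 against 13.9 CPM (5.77-fold, 3.41 to 9.90). Each is 1 of 8 members in its direction, where 4.24% of all genes were higher and 6.76% lower. The 11 ILC1/NK markers summed to 1628 CPM in these cells and 7053 in the others. The 7 markers of CCR6+ ILC3 summed to 987 against 320 CPM, the 10 ILC3 markers to 3843 against 3319 and the 6 markers of NCR+ ILC3 to 1071 against 2056. The 153 cells were deeper, with a median of 2808 UMIs against 2335.5 in the other 720. Of the 873 cells, 73 (8.36%) were among the cells that scored highest as doublets. The part of the markers, of depth and of doublets in the Il22 share and in the Tbx21 and Batf3 ratios was not tested.

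Cells with at least 1 UMI of Il5 or Il13, cytokines of ILC2, numbered 284 in the small intestine (5.17%, 4.602% to 5.79%) and 1575 in the colon (20.9%, 19.95% to 21.8%). ILC2 made up 84.2% and 86.8% of them. In the colon 32.7% of ILC2 passed this limit, where free RNA alone would bring 4.65% past it. Among colon ILC1/NK and T cells 4.12% and 4.33% passed, close to the 4.43% and 4.18% that the free RNA estimate would give. That estimate was too high for Batf3 in colon ILC2. The source of the Il5 and Il13 UMIs in the ILC1/NK and T cells was not tested. Colon ILC3 passed in 9.82%, with 6.55% from free RNA, and in the small intestine 28.2% of ILC2 passed, with 0.71%. These cells were deeper than the rest, with medians of 3210.5 and 2869 UMIs against 2549 and 2536. Gata3 was at 882 against 219 CPM in the small intestine (4.02-fold, 3.73 to 4.34), while it was at 849 against 417 CPM in the colon (2.04-fold, 1.96 to 2.12).

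Tbx21, Zbtb16, Tcf7 and Batf3 were lower by at least 2-fold in the Il5 or Il13 cells of both tissues. Batf3 was at 15.7 against 56.2 CPM in small intestine cells, and 13.5 against 43.1 CPM in colon cells. Maf was lower by that much in the small intestine, at 77.7 against 204 CPM, and in the colon it was at 104 against 146 CPM. In all, 5 of 8 members were lower in the small intestine, with 15.4% of all genes, and 4 of 8 in the colon, with 7.29%. Gata3 was the 1 member higher by 2-fold in each, with 4.49% and 1.19% of all genes.

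Within the ILC2 class the Il5 or Il13 cells had somewhat more Rora and Id2. Rora was at 1882 against 1533 CPM in the small intestine (1.23-fold, 1.15 to 1.31), with 1878 against 1419 CPM in the colon (1.32-fold, 1.28 to 1.36). Id2 was 1.15-fold higher in the small intestine (1.08 to 1.23) and 1.35-fold in the colon (1.31 to 1.39). Gata3 was at 990 against 958 CPM in the small intestine (1.03, 0.95 to 1.12), while it was at 968 against 767 CPM in the colon (1.26-fold, 1.21 to 1.31).

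The colon difference was unequal between clusters. Gata3 was 1.20-fold higher in the Il5 or Il13 cells of cluster 8 (1.13 to 1.28) and 1.23-fold in cluster 13 (1.12 to 1.35), and in cluster 9 the ratio was 1.04 (0.95 to 1.14). Id2 was 1.36-fold higher in cluster 8 and 1.07-fold in cluster 9. Of the members, 0 of 5 tested passed 2-fold in small intestine ILC2, where 1.19% of all genes were higher and 3.41% lower. In colon ILC2, Tbx21 was lower on 5 against 32 UMIs, 1 of 8 members with 1.57% of all genes, and 0 were higher, with 0.962%.

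**Figure D5:**
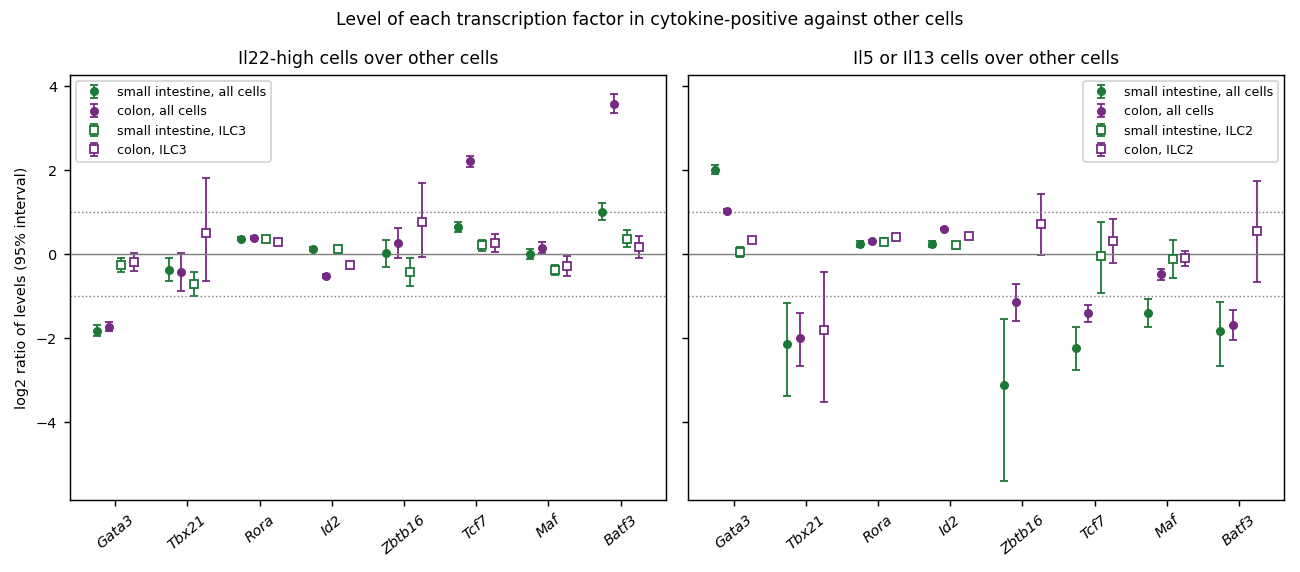
Points give the log2 ratio of the level in Il22-high cells over other cells (left), and in Il5 or Il13 cells over other cells (right), for the 8 genes other than Eomes in each tissue, over all cells (filled) and within ILC3 or ILC2 (open), with 95% exact conditional binomial intervals and points under 20 UMIs in all left out. As a linear ratio, the Batf3 value for Il22 in the colon is 11.97 over all cells and 1.12 within ILC3.

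Cells that passed both cytokine limits were few, 22 in the small intestine against 92 in the colon. The colon cells had a median of 5701 UMIs, 62 were in cluster 11 and 44 were among the doublet-scored cells. Of the 22 cells of the small intestine, 4 were in cluster 11 and 5 were doublet-scored.

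Other transcription factors of ILCs came from a list of 52, of which 51 were in the table and 44 were tested over all cells. By 2-fold, 5 were higher in the small intestine, where 8.92% of all genes were, among them Tox2 (2.05-fold), Ikzf2 (2.10-fold), Irf8 (2.16-fold) and Tcf4 (2.02-fold). Another 5 were higher in the colon, where 5.42% of all genes were, namely Bcl11b (2.02-fold), Irf4 (2.14-fold), Bach2 (2.67-fold), Id1 (2.30-fold) and Pparg (2.67-fold). Within cluster 4, 3 of 37 were higher in the small intestine and 1 lower, against 6.09% and 4.44% of all genes.

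The genes most like each member were ranked by Pearson r of log2(CPM + 10) over 19 groups of at least 50 cells, each the cells of 1 cluster in 1 tissue. These groups share 2 libraries and some share a class, so r is a description. Gata3 was most like Pparg (r = 0.98), Il13 and Klf5, and Batf3 was most like Cxcr5 (r = 0.97), Hmgn3 and Dll1. Tbx21 was most like Ctsw (r = 0.95), Ifng and Slamf7, and Tcf7 was most like Hbp1 (r = 0.92), Cd7 and Arid5a. The genes nearest Rora were Cnnm2 (r = 0.91), Itgav and Abhd16a, and those nearest Maf were Slc7a6os (r = 0.93), Serf2 and Trpv2. Id2 was closest to Serinc3 (r = 0.89), Prcp and Arg1, and Zbtb16 to Pacs1 (r = 0.88), Ppp1r14c and Cxcr3. Eomes, with 18 UMIs in all, was at 0 or near it outside cluster 7, so its nearest genes, Atp1b3 (r = 0.84), Asap1 and Klf2, rank little more than a high level in that cluster.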

How the data were processed

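The authors deposited UMI counts per gene and barcode for each library, which per the submitters' processing notes were made with Cell Ranger 3.0.2 and mm10, and a table of the same counts for chosen cells. The rule that chose those cells is not given in the sources used here. Of the values, 0 differed between table and matrices, and all cells of the table were used.

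The members and gene lists were chosen with earlier results of these data known. Counts were summed over cells and divided by all UMIs of those cells. A gene with at least 20 UMIs over both groups was tested against a 2-fold limit. For each member the 3 most similar genes were named by rule, and list genes past 2-fold over all cells.

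Cells were clustered in scanpy 1.11.5 (10000 UMIs per cell, 2000 variable genes, 30 components, 15 neighbours, Leiden resolution 1), without integration. Stress, sex-linked, mitochondrial, ribosomal and receptor genes were also kept out. Only markers detected in 10% or more of a cluster's cells counted. A class name needed 3 such markers and no other class with more markers among the 10 leading genes. The score behind it was set with the data known. Scrublet called 0 and 1 doublets by its own threshold, which is not a working call, so doublets were kept, and leaving out the 241 and 456 highest-scoring cells was an alternative. Free RNA was estimated from 3 antibody genes at 5.34% of UMIs in small intestine cells and 8.27% in colon cells. For Batf3 in colon ILC2 the amount this gives is above the level found. Thinning to 1000 UMIs left out 0 cells. Ratios and intervals (scipy 1.17.1) were tested on simulated data. A count of 0 was read as up to 3 counts. The level of 1 gene in the list of other ILC factors is not reported here.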

Additional observations from a re-analysis of the deposited data

Results flagged for a closer look

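Id2 went opposite ways with Il22 in the tissues. Over all cells its level in cells with at least 5 Il22 UMIs was 1.09 times that of the other cells in the small intestine and 0.701 times in the colon. Within the ILC3 class the ratios were 1.08 and 0.830, and 1.09 and 0.886 without cluster 11. Within cluster 4 they were 1.06 and 0.97, with intervals of 0.94 to 1.19 and 0.87 to 1.08. The difference between the tissues was not tested, since there was 1 library for each.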

How the results depend on the processing

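The counts of members and pairs past a limit were recomputed under 20 alternative settings. Of 225 such recomputed values 179 stayed within 1.5 times the value above and 46 did not. Of 1077 single ratios 161 moved beyond their counting interval. The cause was not tested except where the setting itself uses fewer cells. The share of all genes past 2-fold was recomputed only without the filter on low counts. The counts of members under the other settings thus have no such share beside them and are not read as results about the members. With median-ratio scaling 0 members were higher in the small intestine over all cells, 1 (Gata3) was higher in the colon, 2 were higher in the colon in ILC3 and 1 in ILC2, and 0 were higher in Il22-high small intestine cells. With free RNA subtracted 1 was higher in the colon over all cells and 1 in ILC2, and 1 in the small intestine in ILC2. Leaving out doublet-scored cells, or cluster 11 (added after the data were seen), gave 1 higher in the colon over all cells. In Il22-high colon ILC3, 1 was higher without doublet-scored cells and 1 with cells called by a threshold of 1203 UMIs. That threshold gave 0 higher in colon ILC1/NK cells, and a Leiden resolution of 2 or clustering each library on its own gave 0 in either direction there. Own clustering gave 2 in each direction in ILC3.

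For pairs, the small intestine had 0 together with the threshold cells, 0 when thinned to 2000 UMIs, 1 without thinning, 1 at 2 UMIs and 0 at limits of 2 and 0.33, and 0, 2, 2 and 0 apart with threshold cells, 2000 UMIs, 2 UMIs and those limits. The colon had 1, 5 and 1 together with threshold cells, no thinning and those limits, and 1, 1 and 0 apart with 2000 UMIs, no thinning and those limits. An Il22 limit of 1 UMI gave 0 members higher and 0 lower in the small intestine, and for the colon 0 lower, and a limit of 10 UMIs gave 0 higher in the small intestine. In colon ILC2, 1 member was higher with 2 UMIs of Il5 and Il13, 1 with Il5 alone and 1 with Il13 alone, and 0 were lower with 2 UMIs or with Il13 alone. Il13 alone gave 0 higher over all colon cells. With no filter on low counts 10.6% of all genes were higher in the small intestine, against 6.88% in the colon.

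No paired analysis was possible because there was 1 library per tissue, so no replicate was left out. At these depths all 8 pairs of Eomes had under 10 expected cells in both tissues, as had 3 of 8 pairs of Zbtb16 and of Batf3 in each tissue and 3 and 4 of 8 pairs of Tbx21 in the small intestine and colon.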
